A study of Mus musculus with 12 samples.

Results

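The comparison described here set the MS_O group against the C_O group, which were the 2 groups of mice given krill oil, and so asked how the whole-brain transcriptome differed with chronic unpredictable mild stress (CUMS) when every animal received the oil. It used 6 of the 12 libraries of the series, 3 from each group, and the members described are the 21393 of 55385 listed genes whose mean FPKM (fragments counted per kilobase of a transcript, relative to all fragments mapped) over all 12 libraries was at least 0.1. All mice were wild-type males of the C57BL/6J strain, bought at 8 weeks of age. The C_O mice (libraries C_O15, C_O30 and C_O72) received krill oil by gavage at 200 mg/kg per day for 5 weeks and no stressor, and the MS_O mice (MS_O13, MS_O46 and MS_O78) received the same oil and went through CUMS for 4 weeks, which mixed damp, tilted or empty cages, isolation, restraint, noise and disturbed light. Mice given water in place of oil, with CUMS (MS_W) or without it (C_W), formed the other 2 groups, which entered the expression filter and the estimate of the spread and are described only beside the krill oil comparison. Each library was made from the poly(A) RNA of 1 brain after saline perfusion, so a lower level cannot be told apart between fewer cells of a type and less RNA per cell.

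CUMS is a rodent procedure in which mild stressors arrive in no foreseeable order, and it is used to model depression. Krill oil carries the omega-3 fatty acids EPA and DHA, largely bound in phospholipids. Several of the genes that differed most between these groups mark the olfactory bulb, the forebrain structure that receives the axons of the nose. Its relay neurons, the mitral and tufted cells, use glutamate and carry regulators such as Tbx21 and Eomes. Its local neurons, the granule and periglomerular cells, use GABA, some of them also dopamine, and are renewed in the adult from neuroblasts that migrate in from the subventricular zone and express Dlx genes, Sp8 and Dcx.

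Estimated counts summed to between 50912906 and 72601163 per library over these 6 libraries (median 56852478), and between 13120 and 13673 genes reached an FPKM of 1. C_O72 stood apart. Over the tested genes, which are no independent replicates, log2(FPKM + 1) of paired libraries correlated at a Pearson's r of 0.923 to 0.928 in the 5 pairs with C_O72 and 0.959 to 0.986 in the 10 pairs without it. The label of whole brain was checked against lists of region markers. The mean log2(FPKM + 1) of 27 hindbrain genes was 1.89 in C_O72 and between 0.0715 and 0.147 in the other 5 libraries, and that of 20 cerebellar genes was 4.18 in C_O72 and 1.69 to 1.89 elsewhere. Slc6a5, the glycine transporter of hindbrain inhibitory neurons, had an FPKM of 47.2 in C_O72 and at most 0.0414 in the others. The hindbrain markers were thus near 0 in 5 of 6 libraries. Lists whose median or count moved most without C_O72 are given both ways below. Without it, 22 of the 84 genes called under the naming rule lost their call, Dlx1 (log2 difference 1.70 in place of 2.53), Dlx2, Sox4, Tppp3, Spag5 and Cx3cr1 among them, and 14 moved by over 1.5 times.

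In a limma fit of all 4 groups to log2(FPKM + 1), 1899 genes (8.88% of those tested) had an unadjusted p under 0.05, a criterion referred to below as called. A fit of the 6 libraries alone gave 1265. Of the 1899 genes of the fit of all 4 groups, 1432 (6.69%) were higher and 467 (2.18%) lower in MS_O. The direction of this split rested on the scaling. With each library centred on its median, 841 genes were higher and 1145 lower, and by edgeR on estimated counts 960 were higher and 866 lower. Differentially expressed genes (DEGs), which also needed an absolute log2 ratio of group mean FPKM above 1, numbered 603 higher (2.82%) and 161 lower (0.753%). With each library centred on its median these were 472 higher and 250 lower, and by edgeR 402 and 299. The values of the 3 MS_O mice all lay above those of the 3 C_O mice for 1905 genes (8.9%) and all below for 703 (3.29%). After Benjamini-Hochberg adjustment over all tested genes, 1 gene (0.00467%) passed 0.05. An exact two-sided permutation test of 3 mice against 3 cannot give a p below 0.1, so single values are given with the limma test.

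**Figure D1:**
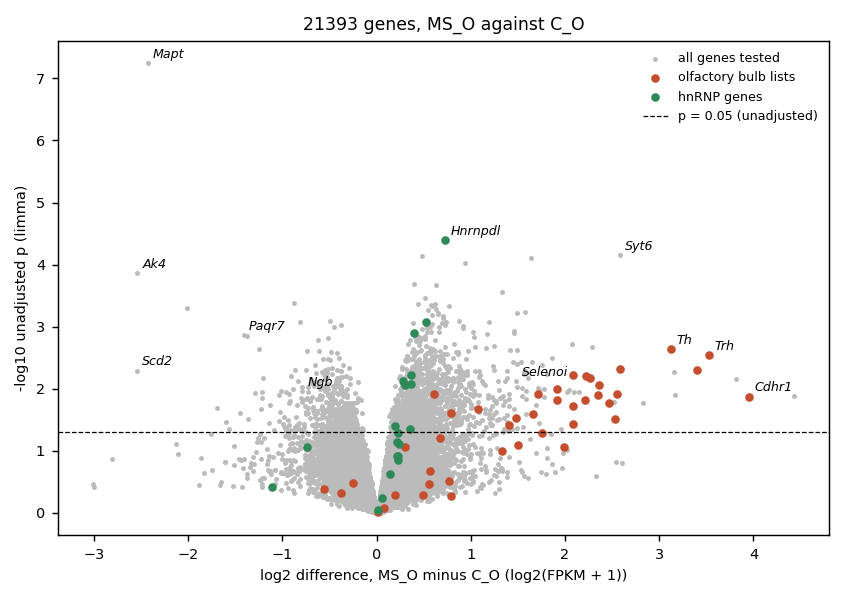
Each point is 1 of 21393 genes, with the difference between the MS_O and C_O means of log2(FPKM + 1) on the x axis and -log10 of the unadjusted limma p on the y axis. The dashed line marks the threshold of 0.05, red points are members of the 2 olfactory bulb lists, and green points are genes of heterogeneous nuclear ribonucleoproteins (hnRNP). Mapt lies alone at the top left with a log2 difference of -2.43, and the called olfactory bulb genes lie to the right of 0.

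Of the 15 genes that were highest in MS_O relative to C_O, 10 stand on lists of olfactory bulb markers, and the others were Ms4a15, Frmd7, Scgn, Syt6 and Fabp7. The 15 were chosen for the largest positive difference among genes whose mean FPKM was 1 or more, with a call and no overlap of the groups, so their separation is a description. None passed the adjusted threshold in limma with all libraries, and 6 did by DESeq2 on estimated counts (Trh, Doc2g, Th, Syt6, Fabp7 and Shisa3). Cdhr1, a cadherin-related protein of mitral and tufted cells (chromosome 14, 37077857 to 37098347, GRCm38), had an FPKM of 0.498, 12.3 and 0.499 in C_O15, C_O30 and C_O72, and of 14.1, 86.5 and 83.7 in MS_O13, MS_O46 and MS_O78. MS_O46 and MS_O78 were high, and MS_O13 lay just above C_O30. The log2 difference was 3.96 (SE 1.33, limma adjusted p = 0.48). Doc2g, a relative of the calcium sensors of vesicle release, followed the same order, with an FPKM of 0.779, 5.73 and 2.2 in C_O and 9.3, 61.8 and 68.3 in MS_O. For Eomes, a T-box regulator of glutamatergic neurons, the C_O values were 0.0205, 1.21 and 1.47 and the MS_O values 2.64, 17 and 17. Tbx21, a T-box regulator of mitral and tufted cells (chromosome 11, 97098071 to 97115331), had 0.0741, 0.849 and 0.0789 in C_O against 1.49, 8.64 and 8.01 in MS_O, a log2 difference of 2.22 (SE 0.65). Shisa3 had 0.142, 1.12 and 0.212 against 1.39, 11.1 and 10.3. In each of these relay neuron genes the lowest MS_O value was that of MS_O13.

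Genes of the local neurons gave a like order of mice. Th, tyrosine hydroxylase, the first enzyme of dopamine synthesis (chromosome 7, 142892752 to 142931128), had an FPKM of 0.841, 5.07 and 4.83 in C_O15, C_O30 and C_O72 and of 10.4, 56.6 and 64.9 in MS_O13, MS_O46 and MS_O78. The group means were 3.58 ± 2.38 in C_O and 44 ± 29.3 in MS_O (SD, n = 3), 12.3-fold apart, with a log2 difference of 3.13 (SE 0.78, limma adjusted p = 0.48). Trh, the precursor of thyrotropin-releasing hormone, had 0.77, 4.37 and 0.387 in C_O and 8.84, 37.4 and 53 in MS_O. Scgn, the calcium-binding protein secretagogin, had 0.0569, 2.07 and 0.117 against 3.64, 22 and 23. These 3 genes separated the groups by a gap between C_O30 and MS_O13 that was smaller than the gap between MS_O13 and the other MS_O mice. The homeobox genes Dlx1 and Dlx2 specify forebrain GABA neurons. Dlx1 had an FPKM of 4.1, 6.49 and 0.0991 in C_O and 7.25, 31.7 and 28.9 in MS_O, and Dlx2, its neighbour on chromosome 2, had 1.94, 2.86 and 0.0001 (the value listed for no estimate) against 3.84, 17 and 20.8. Sp8, a zinc finger factor of bulb interneurons, had 0.467, 1.85 and 0.115 against 2.62, 13 and 11.4. MS_O13 exceeded C_O30 by little for all 3 of these factors, while MS_O46 and MS_O78 stood well above every C_O mouse.

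Of the other genes chosen this way, Ms4a15 had an FPKM of 0.04, 3.43 and 0.0001 in C_O and 5.74, 42.6 and 42.3 in MS_O, and Frmd7, whose product shapes neurite growth, had 0.223, 3.14 and 0.153 against 4.3, 30.4 and 24.3. Fabp7, the brain fatty acid binding protein, which binds DHA and marks radial glia and olfactory ensheathing cells, had 3.58, 14.6 and 7.23 in C_O and 16.8, 46.2 and 79.5 in MS_O, a log2 difference of 2.28 (SE 0.56). Syt6, a synaptotagmin, differed in having an MS_O13 value far from the C_O range. It had 1.06, 2.49 and 2.16 in C_O and 8.01, 21.9 and 22.4 in MS_O, a log2 difference of 2.58 (SE 0.41, limma adjusted p = 0.34), and it passed the adjusted threshold without MS_O13 (adjusted p = 0.018), with array weights (adjusted p = 0.0186) and by DESeq2 (adjusted p = 5.62e-06).

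**Figure D2:**
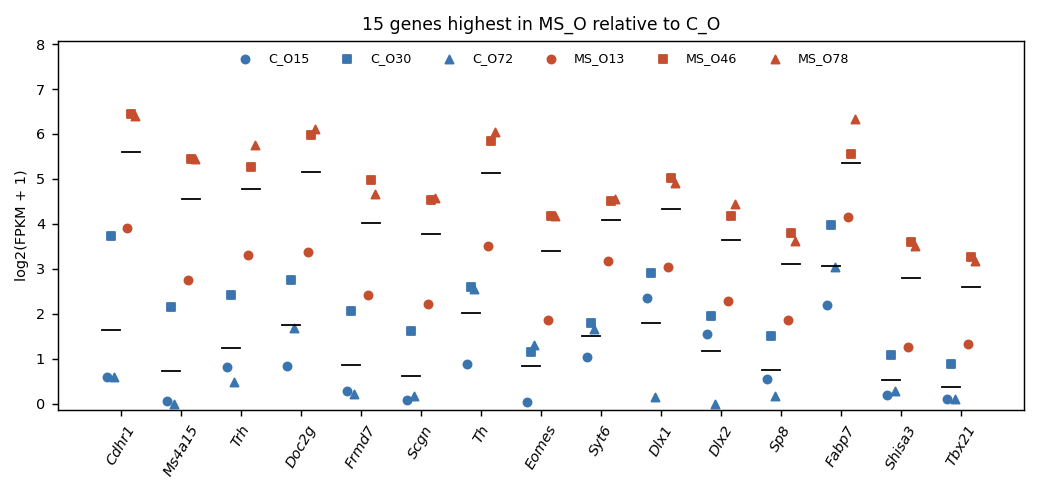
The y axis gives log2(FPKM + 1) of each mouse for the 15 genes with the largest positive difference under the naming rule, with C_O mice in blue, MS_O mice in red, a marker shape for each mouse and a black bar at each group mean. The circles of MS_O13 lie between the C_O mice and the other MS_O mice, just above the highest C_O value for Cdhr1, Dlx1 and Fabp7.

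The promoters of 4 of these regulators and enzymes are shown because the genes were high together and because Dlx1 with Dlx2 and Tbx21 are the regulators of the local and the relay neurons. Each run spans 250 bases before to 50 after the RefSeq start site on GRCm38.p6, 5′ to 3′ on the strand of the gene. Capitals mark the GC box (GGGCGG, either strand, the site bound by Sp factors) and, in Th, also the cAMP response element (TGACGTCA). Dlx1 is at chr2:71529195-71529494 on the plus strand, Dlx2 at chr2:71546705-71547004, Tbx21 at chr11:97115282-97115581 and Th at chr7:142899946-142900245, all on the minus strand.
Dlx1: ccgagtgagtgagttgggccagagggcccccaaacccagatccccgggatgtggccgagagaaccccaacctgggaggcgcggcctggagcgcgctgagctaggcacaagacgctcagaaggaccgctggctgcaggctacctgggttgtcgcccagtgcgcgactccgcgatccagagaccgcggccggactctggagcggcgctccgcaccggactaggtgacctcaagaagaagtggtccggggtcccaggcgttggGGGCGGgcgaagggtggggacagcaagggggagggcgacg
Dlx2: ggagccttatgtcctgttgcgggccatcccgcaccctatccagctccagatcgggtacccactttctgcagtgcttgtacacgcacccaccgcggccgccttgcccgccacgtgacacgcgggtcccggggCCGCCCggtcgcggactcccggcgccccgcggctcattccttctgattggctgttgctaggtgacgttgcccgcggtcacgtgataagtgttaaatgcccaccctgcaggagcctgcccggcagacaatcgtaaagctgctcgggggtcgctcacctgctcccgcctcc
Tbx21: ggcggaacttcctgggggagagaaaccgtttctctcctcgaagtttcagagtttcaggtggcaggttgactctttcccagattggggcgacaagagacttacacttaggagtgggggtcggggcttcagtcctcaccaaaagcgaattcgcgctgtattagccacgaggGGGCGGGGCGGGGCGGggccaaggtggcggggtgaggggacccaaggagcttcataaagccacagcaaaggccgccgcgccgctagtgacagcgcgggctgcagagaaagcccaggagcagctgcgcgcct
Th: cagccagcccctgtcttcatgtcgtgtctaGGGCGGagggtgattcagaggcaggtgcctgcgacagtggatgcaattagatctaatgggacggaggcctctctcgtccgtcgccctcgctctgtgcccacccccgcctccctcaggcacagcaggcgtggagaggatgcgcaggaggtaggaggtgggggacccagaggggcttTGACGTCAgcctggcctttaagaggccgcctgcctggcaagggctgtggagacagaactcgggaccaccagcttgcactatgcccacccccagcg

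In Dlx1, Dlx2 and Th the GC box occurred at 1 position each, and in Tbx21 at 3 overlapping positions. Of 32851 mouse promoters of this length, 35.7% held a GC box and 1.79% the cAMP response element. All 15 genes had an entry, with 19 promoters, of which 11 held a GC box, 1 the cAMP response element, 2 the homeodomain core TAATTA (5.29% of all promoters, either strand) and 0 the T-box site AGGTGTGA (1.28%, either strand). Of the 15 genes with the largest falls, 8 had an entry, and 8 of their 13 promoters held a GC box. A match gives the letters only, and binding was not measured.

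Over the lists of bulb markers, which were chosen with earlier results of these data known, 17 of 26 interneuron genes were called higher and 0 lower, against 6.69% and 2.18% of all genes, and the median log2 difference was 1.83 against 0.03 over all tested genes. Of 16 projection neuron genes, 8 were called higher and 0 lower, with a median of 0.79. Beside the genes above, Gng4, Nmb and Shisa8 had log2 differences of 2.55 (SE 0.84), 2.35 (SE 0.78) and 2.21 (SE 0.76). Members not called included Isl1 at 0.08 (SE 0.37), Pax6 at 0.57 (SE 0.43) and Etv1 at 0.19 (SE 0.29) among interneuron genes, and Uncx at -0.56 (SE 0.65) and Ebf3 at -0.38 (SE 0.51) among projection neuron genes. MS_O13 was the lowest MS_O mouse for 37 of the 42 tested genes of these lists. The mean log2(FPKM + 1) of the 42 was 1.84, 2.55 and 1.70 in C_O15, C_O30 and C_O72 and 2.71, 4.02 and 3.94 in MS_O13, MS_O46 and MS_O78. In the water groups it was 2.90, 3.00 and 1.95 in C_W1, C_W64 and C_W70 and 3.29, 2.96 and 1.97 in MS_W31, MS_W75 and MS_W95, so 4 of the 6 mice on water lay above every C_O mouse, none reached MS_O46 or MS_O78, and MS_O13 lay within their range. The medians stayed above 0 in each of 25 alternatives, between 1.03 and 2.41 for interneuron genes and 0.69 and 1.52 for projection neuron genes. The number of interneuron genes called moved with single libraries. It was 5 without MS_O46, 10 without MS_O78 and 11 without C_O72, and for projection neuron genes it was 5 without MS_O78. An ordinary linear model with library size as covariate called 0 members of either list at an unadjusted p under 0.05, where limma called 17 and 8. The amount of bulb tissue in each library was not measured, and its part in these values was not tested.

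Mapt, which encodes the microtubule-associated protein tau (ENSMUSG00000018411, chromosome 11, 104231390 to 104332090, plus strand), was the gene past the adjusted threshold. Its FPKM was 71.9, 66.9 and 54 in the C_O mice and 10.4, 11.8 and 10.9 in the MS_O mice, so the groups did not overlap and each was tight. The means were 64.3 ± 9.24 and 11 ± 0.72 (SD, n = 3), 5.83-fold lower in MS_O, with a log2 difference of -2.43 (SE 0.18, limma adjusted p = 0.00122). The difference between CUMS effects with oil and with water was -2.16 on the log2 scale, with an unadjusted limma p of 4.9e-06 and an adjusted p of 0.106. The difference lay between -2.61 and -2.34 in all 25 alternatives. In the linear model with library size as covariate Mapt did not pass the adjusted threshold (adjusted p = 0.763). The 3 features that overlap Mapt in the table, Gm22743, Gm11659 and Gm47310, had an FPKM of at most 0.124 in any library.

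Of 36 genes of the neuronal cytoskeleton, 7 (19.4%) were called lower and 3 (8.33%) higher, with a median of 0.03. Over all tested genes 2.18% were called lower and 6.69% higher. The lower members included the neurofilament light and medium chains. Nefl had an FPKM of 146, 109 and 403 in C_O and 110, 70.8 and 77.5 in MS_O (log2 difference -1.13, SE 0.40), and Nefm had 55.1, 29.6 and 182 against 30.7, 23.5 and 22.8. C_O72 was far above the other mice for both, and the groups overlapped. Without C_O72 the log2 difference of Nefl was -0.57. Ina, alpha-internexin, fell by 0.63 (SE 0.28) and Stmn2, stathmin-2, by 0.51 (SE 0.23) on the log2 scale. Without C_O72 the list had 2 lower calls, and without MS_O46 it had 1. Higher were Dclk2 at 1.01 (SE 0.31), Tubb2b at 0.52 (SE 0.22) and Dcx, doublecortin of migrating neuroblasts, which had an FPKM of 1.85, 2.74 and 0.643 in C_O and 3.47, 9.89 and 8.7 in MS_O.

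Lipid and energy genes stood among the other large falls. Scd2, the brain stearoyl-CoA desaturase that makes monounsaturated fatty acids (chromosome 19, 44293674 to 44306864), had an FPKM of 244, 230 and 468 in C_O and 42.6, 59.4 and 49.5 in MS_O, 6.22-fold lower. The log2 difference was -2.55 (SE 0.72, limma adjusted p = 0.48). In the water groups it took both levels, at 269, 42.6 and 47.4 in C_W and 296, 298 and 69.1 in MS_W. Ak4, a mitochondrial adenylate kinase (chromosome 4, 101419277 to 101466995), had 9.3, 10.4 and 12.2 in C_O and 1.57, 0.649 and 0.835 in MS_O, 10.4-fold lower, with a log2 difference of -2.55 (SE 0.43, limma adjusted p = 0.42). The 3 C_W mice, at 1.33 to 2.02, were close to MS_O, and the MS_W mice had 1.53, 6.68 and 10.2. Ak4 passed the adjusted threshold without MS_W31 (adjusted p = 0.00462) and by DESeq2 on estimated counts (adjusted p = 4.16e-06). Plin4, a lipid droplet coat protein, had 3.14, 1.18 and 8.03 in C_O and 1.14, 0.592 and 0.62 in MS_O, and C_O30 and MS_O13 were nearly level. Its log2 difference of -1.30 was -0.77 without C_O72. Paqr7, a membrane progestin receptor, had 21.7, 17.1 and 11 against 6.57, 4.78 and 4.98, a log2 difference of -1.41 (SE 0.33).

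The other genes with the largest falls had varied roles. Cx3cl1, the neuronal chemokine fractalkine, had an FPKM of 233, 27 and 43.3 in C_O and 24.6, 22.8 and 13.2 in MS_O, so the group mean rested on C_O15. Its microglial receptor gene Cx3cr1 had 1.2, 10.2 and 4.69 in C_O and 1.06, 1.2 and 2.19 in MS_O (log2 difference -1.09, SE 0.48). Gsk3b, the kinase GSK-3 beta that acts in Wnt signaling and phosphorylates tau, had 17.8, 9.32 and 8.81 in C_O. In MS_O it had 2.96, 2.93 and 8.79, where MS_O78 all but met C_O72. On water Gsk3b had 2.92, 3.06 and 3.21 in C_W, close to MS_O13 and MS_O46, and 9.11, 4 and 3.35 in MS_W. Tppp3, a tubulin polymerization protein, had 18.9, 13.7 and 101 against 10.6, 9.61 and 7.76, high in C_O72, and its log2 difference of -1.60 was -0.74 and no longer called without that mouse. Ly6e had 52.1, 42.3 and 28.2 in C_O and 24, 10.3 and 12.5 in MS_O (log2 difference -1.38, SE 0.32), and Galnt9, a mucin-type glycosyltransferase, had 54.2, 23.2 and 23.1 against 21.6, 8.41 and 10.9. Smim17, Spag5 and Napg, the last a protein of SNARE recycling, had log2 differences of -1.22 (SE 0.45), -0.97 (SE 0.42) and -0.94 (SE 0.42), and without C_O72 that of Smim17 was -0.61. The loci Mir5130 and Mir341, at -1.04 (SE 0.35) and -0.95 (SE 0.42), stand for reads at the hairpin genes in poly(A) libraries and not for mature miRNAs.

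**Figure D3:**
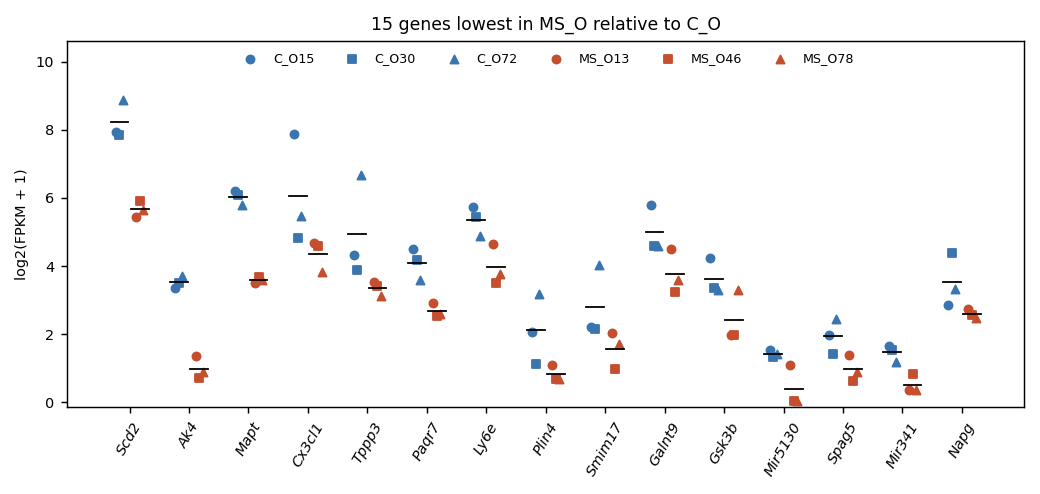
The y axis gives log2(FPKM + 1) of each mouse for the 15 genes with the largest negative difference under the naming rule, with C_O mice in blue, MS_O mice in red, a marker shape for each mouse and a black bar at each group mean. Mapt and Ak4 show tight groups far apart, while for Cx3cl1 and Tppp3 a single C_O mouse lies above the rest.

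Among genes of omega-3 uptake and polyunsaturated fatty acid metabolism, 3 of 46 were called higher and 2 lower, against 6.69% and 2.18% of all genes, with a median of -0.07. Apart from Fabp7 and Scd2, they were Pparg, a nuclear receptor for fatty acids, with an FPKM of 1.33, 1 and 0.229 in C_O and 1.52, 2.53 and 2.13 in MS_O, and the lipoxygenases Alox12 at 0.34 (SE 0.12) and Alox8 at -0.49 (SE 0.22). Alox12 was low, with an FPKM of at most 0.662 in the 6 mice. Of 52 glycerophospholipid genes, 2 were higher and 1 lower. Selenoi, which makes phosphatidylethanolamine by the Kennedy pathway, had 0.608, 0.619 and 0.549 in C_O and 3.08, 4.5 and 2.9 in MS_O, a tight low group and a separate high one, 5.9-fold apart (log2 difference 1.48, SE 0.45, limma adjusted p = 0.48). In the water groups Selenoi also took both levels, at 0.966, 0.64 and 3.12 in C_W and 4.22, 4.3 and 0.638 in MS_W. Gpam, the first enzyme of glycerolipid synthesis, was at 0.57 (SE 0.18), and the phosphatase gene Plpp1 at -0.54 (SE 0.24), or -0.22 and not called without C_O72. Sphingolipid genes gave 0 of 45 higher and 2 lower, the sphingosine 1-phosphate exporter Spns2 at -0.50 (SE 0.21) and the receptor S1pr4 at -0.15 (SE 0.07). Without C_O72 Spns2 was at -0.43 and not called. S1pr4 was low, with an FPKM of at most 0.284 in the 6 mice. Of 27 adenylate kinase and purine genes, Ak1, P2rx7 and Nt5e were higher, at 0.33 (SE 0.13), 0.29 (SE 0.13) and 0.72 (SE 0.28), and the adenosine receptor gene Adora1 was lower, at -0.58 (SE 0.19), beside Ak4. Nt5e and Adora1 were at 0.66 and -0.46 and not called without C_O72.

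Genes of GABA neurons and of monoamine signaling overlapped with the bulb genes. Among 22 cortical interneuron genes 5 were higher (22.7%) and 1 lower (4.55%), against 6.69% and 2.18% of all genes. The median of 0.60 was 0.04 without C_O72. Gad1, which makes GABA from glutamate, had an FPKM of 51.7, 51.6 and 36 in C_O and 67.7, 198 and 167 in MS_O (log2 difference 1.49, SE 0.37), and Gad2, the second GABA-making enzyme, had 21.9, 26.1 and 21.3 against 32.4, 50.1 and 47.2. Adarb2 and Ndnf were at 0.79 (SE 0.24) and 1.15 (SE 0.44), and Maf was lower, at -0.56 (SE 0.21). Of 39 monoamine genes, 5 (12.8%) were higher and 0 lower. They were Th, the dopamine transporter gene Slc6a3 at 0.88 (SE 0.26), Pnmt, which makes adrenaline, at 0.43 (SE 0.13), and the serotonin receptor genes Htr5b at 0.60 (SE 0.19) and Htr1f at 0.45 (SE 0.19). Slc6a3 had an FPKM of 0.0001, 0.13 and 0.0001 in C_O and 0.178, 1.63 and 1.27 in MS_O, low in every mouse. Pnmt was low as well, at 0.205, 0.0001 and 0.0569 in C_O and 0.405, 0.464 and 0.529 in MS_O. Neuroblast and progenitor genes gave 5 of 18 higher (27.8%) and 1 lower (5.56%). Igfbpl1, a marker of young neurons, had 0.364, 0.265 and 0.164 in C_O and 1.01, 4.34 and 2.52 in MS_O, and Sox4 had 2.84, 4.59 and 1.02 against 4.81, 12.8 and 9.09.

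Receptor and channel lists are set here against the 6.69% of all genes called higher and the 2.18% called lower. Of 46 glutamate and GABA receptor genes, 4 (8.7%) were called higher and 0 lower, all of them glutamate receptor genes. Gria1, an AMPA receptor subunit, had an FPKM of 54.8, 56.1 and 32.5 in C_O and 62.4, 84.4 and 81.7 in MS_O. The kainate subunits Grik2 and Grik3 were at 0.51 (SE 0.13) and 0.73 (SE 0.32), and Grm2, a presynaptic metabotropic receptor, had 10.8, 8.31 and 2.23 against 11.8, 16.4 and 23.1. Without C_O72 the log2 differences of Gria1, Grm2 and Grik3 were 0.44, 0.74 and 0.32 in place of 0.69, 1.31 and 0.73, and the list median of 0.17 was -0.03. Of 35 sodium and calcium channel genes, 6 (17.1%) were higher, led in size by the AMPA receptor partner Cacng5 at 2.08 (SE 0.61) and the T-type channel Cacna1h at 1.44 (SE 0.63), and 1 was lower. The 6 became 2 without C_O72 and 3 without MS_O46 or MS_O78. Potassium channel genes gave 4 of 75 higher (5.33%) and 5 lower (6.67%), and without MS_O78 these were 2 and 2. Kcnd2, the A-type channel Kv4.2, had 14.2, 14.1 and 12.6 in C_O and 18.9, 24.2 and 22 in MS_O, and Kcnc4 had 21.3, 22.4 and 24.1 against 18.8, 13.1 and 14.2. In neither did the groups overlap. Of 23 genes of the acetylcholine synapse, 2 (8.7%) were called higher and 1 (4.35%) lower. They were Chrna10 at 1.34 (SE 0.48), Chrnb4 at 0.79 (SE 0.29) and Chrna4 at -0.46 (SE 0.20). Without C_O72, Chrna10 and Chrna4 were at 1.23 and -0.31 and not called.

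Of 58 Notch and Wnt genes, 4 (6.9%, close to the 6.69% of all genes) were higher and 0 lower, which were the Notch ligand Dll1 at 0.71 (SE 0.28), the receptor Notch2 at 0.61 (SE 0.26), the Notch target Hey2 at 0.64 (SE 0.21) and the ligand Wnt10b at 0.51 (SE 0.18). The higher calls numbered 10 without MS_O13 and 1 without MS_O78. The differences of Wnt10b and Dll1 were 0.31 and 0.72 and not called without C_O72. That of Notch2 turned to -0.19 in the linear model with library size as covariate. For the glucocorticoid axis, Cdkn1a at 0.96 (SE 0.38) and the melanocortin receptor gene Mc4r at -0.52 (SE 0.17) were the 2 calls among 24 genes. Of 17 neurotrophin genes, the receptor gene Sorcs2 alone (5.88%) was called, at 0.90 (SE 0.36), or 0.63 and not called without C_O72. Sort1 and Vgf were at 0.11 (SE 0.28) and -0.08 (SE 0.37). Of 17 clock genes, Per2 was lower, at -0.65 (SE 0.25), while Tef and Nr1d1 were at -0.06 (SE 0.42) and 0.41 (SE 0.20). Immediate early genes gave 0 calls in 20 by limma. Egr1 had an FPKM of 95.6, 75.7 and 13.1 in C_O and 68.4, 65.1 and 53.1 in MS_O, and Arc had 101, 47.5 and 12.3 against 68, 67.7 and 25.9, so C_O72 was the lowest mouse for both. Antioxidant genes gave 0 calls in 31 by limma and 3 higher without C_O72, with Mt3 at 0.00 (SE 0.17) and Gpx4 at -0.21 (SE 0.18). Of 25 interferon and antigen presentation genes, Mx2 was called, at 0.30 (SE 0.14), and B2m and H2-D1 were at -0.17 (SE 0.16) and -0.23 (SE 0.42).

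**Figure D4:**
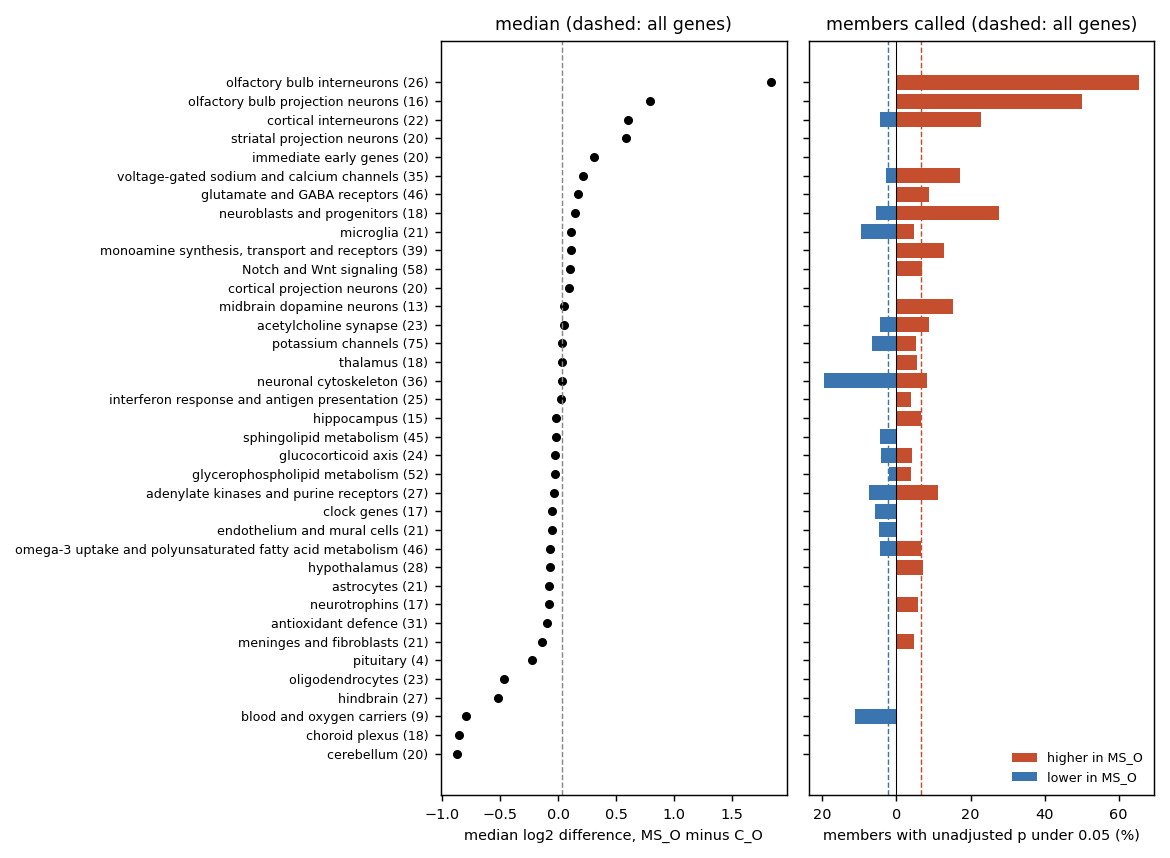
For each of 37 gene lists, with the number of tested members in parentheses, the left panel gives the median log2 difference of MS_O minus C_O and the right panel the percentage of members with an unadjusted limma p under 0.05, higher in MS_O to the right in red and lower to the left in blue. Dashed lines give the same over all 21393 genes, and the olfactory bulb interneuron list reaches a median of 1.83.

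Lists of other regions and cell types gave few calls in limma with all libraries. They are set, here and in the next paragraph, against the 6.69% of all genes called higher and the 2.18% called lower. Cerebellar, hindbrain, choroid plexus and oligodendrocyte lists had medians of -0.88, -0.52, -0.85 and -0.47 with 0 calls by limma, and without C_O72 these were 0.02, 0.00, -0.17 and 0.12. Without C_O30, which was low for both, 9 of 18 choroid plexus genes and 11 of 23 oligodendrocyte genes were called lower, with medians of -1.49 and -0.96. Pvalb and Itpr1 of the cerebellum were at -2.10 (SE 1.22) and -0.49 (SE 0.49), and Tph2 of the raphe, which makes serotonin, at -0.63 (SE 0.96). Ttr, the main product of the choroid plexus, had an FPKM of 804, 2.51 and 4772 in C_O and 612, 6.29 and 4.83 in MS_O, so it took high and low levels within both groups, and Enpp2 was at -1.33 (SE 0.87). The myelin gene Mobp was at -0.55 (SE 0.52). The striatal list had a median of 0.58 that was 0.04 without C_O72, with 0 calls. Penk, the enkephalin precursor, had 90.1, 181 and 82.8 in C_O and 230, 237 and 221 in MS_O, and Ppp1r1b was at 0.50 (SE 0.61). Cortical projection neuron genes also gave 0 calls by limma in 20, with a median of 0.09, Slc17a7 at 0.77 (SE 0.71) and Rtn4r at -0.21 (SE 0.56). C_O72 was the lowest of the 6 mice for this list, with a mean log2(FPKM + 1) of 1.74 against 2.85 to 3.75. Without it the median was -0.47 with 5 lower calls, Rtn4r was at -0.98 and Slc17a7 at -0.25, and with array weights 7 were called lower.

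The hypothalamic list had 2 calls in 28, Trh and the gonadotropin-releasing hormone gene Gnrh1 at 0.88 (SE 0.26), and the hippocampal list 1 in 15, Fibcd1 at 0.96 (SE 0.28), beside Wfs1 at 0.39 (SE 0.60) and Neurod1 at -1.20 (SE 1.04). The thalamic list had Chrnb4 alone, with Nrgn at 1.26 (SE 1.69) and Calb2 at 1.99 (SE 1.05), and the midbrain dopamine list had Th and Slc6a3. Of 21 microglial genes, Sall1 was higher, and Cx3cl1, which neurons express, and Cx3cr1 were lower. Sall1 had an FPKM of 3.68, 5.92 and 3.99 in C_O and 6.16, 25.7 and 22.1 in MS_O. As for the bulb lists, C_O30 was its highest C_O mouse and MS_O13 its lowest MS_O mouse. The mean log2(FPKM + 1) of the 21 genes was 2.95 in C_O and 3.00 in MS_O. Ly6c1 of the endothelium was lower, at -0.66 (SE 0.26), or -0.32 and not called without C_O72, and Vtn and Itm2a were at 0.10 (SE 0.27) and 0.14 (SE 0.21). The meningeal list, whose median of -0.14 was 0.14 without C_O72, had Islr at 1.19 (SE 0.47), with Ptgds and Igfbp2 at -0.39 (SE 0.46) and -0.18 (SE 0.55). Over 25 alternatives its median ran from -0.996 to 0.20, with up to 9 of 21 genes called lower. Astrocyte genes gave 0 calls in 21, with Sparcl1 and Glul at -0.37 (SE 0.24) and -0.06 (SE 0.16). Pituitary genes gave 0 calls in 4, with Gh at -1.86 (SE 1.14) and Pomc at 0.22 (SE 0.46). Of 9 blood and oxygen carrier genes, Ngb, the neuronal globin, was lower, at -0.79 (SE 0.26), and in the alternatives up to 5 were called lower. The red cell globins Hbb-bs and Hba-a2 were at -1.42 (SE 1.02) and -1.61 (SE 1.05).

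Genes of hnRNP and SR proteins, which bind pre-mRNA and guide its splicing, gave small differences with narrow errors. These families were chosen after their values were seen. Of 20 hnRNP genes 9 were called higher and 0 lower, with a median log2 difference of 0.23. Of 11 SR protein genes 3 were higher and 0 lower, with a median of 0.23. Over all tested genes 6.69% were called higher and 2.18% lower, with a median of 0.03. Hnrnpdl had an FPKM of 24.8, 24.9 and 20.1 in C_O and 35.3, 41.2 and 40.4 in MS_O, with no overlap, and a log2 difference of 0.72 (SE 0.11, limma adjusted p = 0.34). Srsf5 had 27.8, 28.2 and 24.5 against 36.9, 44.5 and 45.4, and Hnrnpa1 had 52.8, 53 and 56.5 against 64.9, 75 and 75.7. In all 3 the C_O mice lay close together, and MS_O13 was the lowest MS_O mouse. Hnrnpf and Hnrnpa3 were not called, at -0.74 (SE 0.39) and -1.11 (SE 1.23). With each library centred on its median, which puts the median of all genes at -0.03, the hnRNP median was 0.12 with 4 calls, and it stayed above 0 in all 25 alternatives. In the water comparison of MS_W with C_W, 8 of the 20 were called higher, with a median of 0.21. Without MS_W95 these were 5 and 0.22. Over all tested genes 6.71% were called higher on water, and 5.88% without MS_W95.

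The comparison of MS_W with C_W shares no mouse with that of MS_O and C_O. In it 1435 genes (6.71%) were called higher and 810 (3.79%) lower. MS_W95 stood apart in the water groups as C_O72 did on oil, with a mean log2(FPKM + 1) of 1.60 for hindbrain genes and 5.50 for cerebellar genes against 0.0512 to 0.0984 and 1.63 to 1.85 in the other 5 water mice. The water values are therefore also given without it, a choice made after seeing the data. The bulb interneuron list had 1 higher call in 26 and a median of 0.09, against 17 and 1.83 with oil, and without MS_W95 it had 3 higher calls, 1 lower and a median of 0.72. The difference between the effects of CUMS with oil and with water was called for 1546 genes (7.23%) at an unadjusted p, and after adjustment for 0 by limma and 0 by edgeR but 151 by DESeq2. Of the 26 interneuron genes 5 were called in that test, with a median difference of 1.68 against -0.02 over all genes, and without MS_W95 3 were called, with a median of 1.13 against -0.01. Differences between the effects had an unadjusted p of 0.00069 for Syt6, 0.0044 for Scd2, 0.0001 for Ak4 and 3.8e-05 for Ngb, and adjusted p of 0.402, 0.631, 0.248 and 0.221. Ngb was lower with CUMS on oil, and on water its log2 difference was 1.68 (SE 0.26). Without MS_W95 the unadjusted p of these differences were 0.0012 for Syt6, 0.00079 for Scd2, 0.00012 for Ak4 and 0.0001 for Ngb. By contrast, Ly6e, Plin4 and Galnt9 were also lower on water, at -1.05 (SE 0.32), -1.25 (SE 0.42) and -1.16 (SE 0.40), and Gad2, Kcnd2 and Grik2 were also higher there, at 1.02 (SE 0.24), 0.56 (SE 0.15) and 0.54 (SE 0.13). All 6 were also called without MS_W95.

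**Figure D5:**
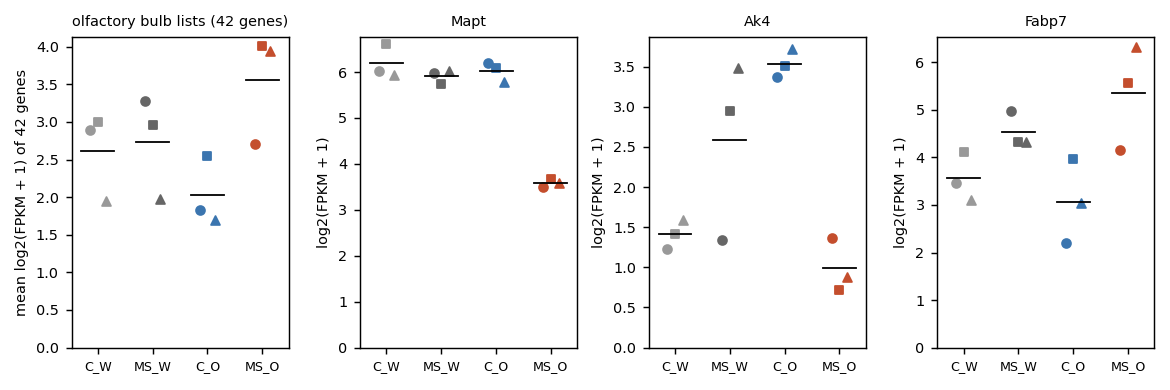
Each point is 1 mouse of the C_W, MS_W, C_O or MS_O group and each bar a group mean, on the scale of log2(FPKM + 1). The first panel gives the mean over 42 genes of the olfactory bulb lists and the others give Mapt, Ak4 and Fabp7, and Mapt is low in the 3 MS_O mice alone.

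Leaving out any of the 3 MS_O mice moved the number of called genes by over 1.5 times. MS_O13 was the lowest MS_O mouse for 1098 of the 1432 genes called higher (76.7%) and the highest MS_O mouse for 303 of the 467 genes called lower (64.9%). Without it, 112 genes passed the adjusted threshold, 101 of them higher in MS_O, and 2950 genes were called. Among the listed genes these were Prokr2, a receptor of the pathway that guides neuroblasts to the bulb, Slc6a3, Gad1, Dclk2, Fabp7 and Mapt, with Hnrnpdl, Hnrnpl and Srsf5 of the splicing families. Without MS_O46, 918 genes were called and 2 passed the adjusted threshold, and without MS_O78 the numbers were 1143 and 1. Without C_O72 they were 1965 and 2.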

How the data were processed

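Poly(A) RNA of 12 whole mouse brains, 3 per group, was sequenced in paired ends from stranded libraries. Per the labels, the authors trimmed reads with cutadapt 1.9, aligned them to mm10 with HISAT2 2.0.4 and assembled transcripts with StringTie 1.3.4d, and their paper names Ballgown for expression. The deposited table gives an FPKM per gene, scaled for transcript length and library size, with 0.0001 where there was no estimate. It also gives estimated counts, which the authors derived from coverage and did not scale between libraries. These were rounded for edgeR and DESeq2. An FPKM value is relative to the other RNA in its library. Its precision follows from the number of mice, since 3 a group leave 8 residual degrees of freedom in the fit. The labels name separate mice, so p-values measure the spread between animals.

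Genes averaging an FPKM of 0.1 or more over the 12 libraries were kept, and log2(FPKM + 1) of the 4 groups was fitted in limma 3.58.1 (R 4.3.3, lmFit, eBayes with trend, two-sided). A difference on this scale understates the change of low genes. The DEG thresholds were those of the study, namely p under 0.05 with a log2 ratio of mean FPKM beyond 1 in either direction. The p here came from limma, whereas the study selected its DEGs with Ballgown. Of the alternatives, the linear model with library size as covariate was modelled on Ballgown's test and gave 142 DEGs. It was not run in Ballgown, and whether its covariate matched that of Ballgown was not tested. The paper lists more DEGs for this comparison, so the 142 do not stand for the study's own count. Since 118 symbols stand for more than 1 gene, genes were fitted by identifier, while list members and promoters were matched by symbol.

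The comparison and the 37 gene lists were chosen with earlier results of these data known. Named genes were those past an adjusted p of 0.05, the 15 largest rises and 15 largest falls among called genes without overlap and with a mean FPKM of at least 1 (leaving out symbols starting with Gm or ending in Rik), up to 4 members of each list with the smallest p under 0.05 or, where fewer than 2 passed, the 2 most abundant, and genes overlapping those past the adjusted p. Others were named after their values were seen. For 2 genes no value is reported here. Reads shared between near-identical copies, such as the globin genes, could be split by the authors' assembly.

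The alternatives tried were a pseudocount of 0.1 or 0.01, every gene or only those averaging an FPKM of 1 or more, quantile normalization, centring on library medians, the 6 libraries alone, robust eBayes, array weights, a linear model with library size as covariate, the fold taken from the limma difference, edgeR 4.0.16 (quasi-likelihood), DESeq2 1.42.0, and leaving out each library or both C_O72 and MS_W95, and, for the water comparison, leaving out MS_W95, which was added after seeing the data. Promoter sequences were those of RefSeq on GRCm38.p6. Coordinates of genes are those of the deposited table. Python 3.11.15, pandas 2.3.3 and matplotlib 3.10.9 were used for tables and figures.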

Additional observations from a re-analysis of the deposited data

Results flagged for a closer look

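For 4 named genes every MS_O mouse lay on one side of the C_O mice while every MS_W mouse lay on the other side of the C_W mice. The difference between the effects of CUMS with oil and with water was tested in limma and did not pass the adjusted threshold for any of them. It was -2.04 for Smim17 (unadjusted p = 0.00909, adjusted p = 0.665), with log2 differences of -1.22 on oil and 0.82 on water. For Gsk3b it was -1.78 (unadjusted p = 0.0114, adjusted p = 0.665), with -1.21 and 0.57. For Grm2 it was 2.44 (unadjusted p = 0.00279, adjusted p = 0.597), with 1.31 and -1.13. For Pparg it was 1.38 (unadjusted p = 0.00105, adjusted p = 0.455), with 0.76 and -0.62. Of all 21393 tested genes, 128 had groups that did not overlap in opposite directions and 361 in the same direction. The rule that named Smim17 and Gsk3b required no overlap on oil, so for them that side of the pattern was fixed beforehand. Groups of 3 mice were too small for the test of single outlying values.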

How the results depend on the processing

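No paired analysis was possible because the groups share no replicate numbers. The number of DEGs, 764 as reported, was 1349 with no filter, 299 with a mean FPKM of at least 1, 142 in the linear model with library size as covariate and 170 with the fold taken from the limma difference, and 474 to 1251 with a library left out. The number of genes past the adjusted p, 1 as reported, was 2 with the C_O and MS_O libraries alone, 7 with array weights, 172 by DESeq2 (1 by edgeR), 3 in the 10 libraries without C_O72 and MS_W95, 0 in the linear model (where 1039 had an unadjusted p under 0.05), and 1 to 112 with a library left out, the highest without MS_O13. The 1899 genes with an unadjusted p under 0.05 became 1265 with the 6 libraries alone, 4268 with array weights, 1039 in the linear model, 2911 in the 10 libraries, and 918 to 2950 with a library left out. The interaction, with 0 genes past the adjusted p by limma and edgeR, had 32 with array weights, 151 by DESeq2, 31 in the 10 libraries and 0 to 20 with a library left out, the highest without C_O15. The cause was not tested.

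Of 119 genes under the naming rule, 84 were called, and 1 of these changed direction in any of 25 alternatives, Notch2, at -0.19 in the linear model. Of the 35 others, 24 did so, and their log2 differences under those alternatives follow. In the 10 libraries they were -0.25 for Slc17a7, -0.062 for Wfs1, -1.03 for Nrgn, 0.015 for Slc6a5, 0.14 for Ptgds, 0.50 for Igfbp2, 0.16 for Mobp, 0.094 for Glul, -0.45 for Egr1, -0.48 for Arc, -0.23 for Sort1, 0.20 for H2-D1 and 0.034 for Gpx4. In the linear model they were 1.34 for Rtn4r, -0.96 for Calb2, 0.34 for Itpr1, 0.33 for Ttr, -0.27 for Pomc, -0.69 for Vtn, -0.50 for Itm2a, 0.67 for Vgf and -0.38 for Mt3. With array weights they were -0.16 for Ppp1r1b, -0.86 for Nrgn, 0.26 for Ptgds, 0.65 for Igfbp2, 0.14 for Glul, -0.36 for Egr1, -0.61 for Arc, -0.20 for Sort1, 0.19 for H2-D1 and 0.21 for Tef. By edgeR and DESeq2 they were -0.27 and -0.27 for Nrgn, -0.061 and -0.069 for Egr1, -0.067 and -0.074 for Arc, -0.027 and -0.035 for Sort1, and -0.071 and -0.079 for Mt3. With library medians centred they were -0.018 for Vtn, -0.0032 for Sort1 and -0.12 for Mt3. With a library left out, the values ran from -0.25 to 1.47 for Slc17a7, -0.98 to 0.21 for Rtn4r, -0.062 to 0.95 for Wfs1, -1.03 to 2.54 for Nrgn, -2.77 to 0.015 for Slc6a5, -0.88 to 0.14 for Ptgds, -0.61 to 0.50 for Igfbp2, -1.14 to 0.16 for Mobp, -0.17 to 0.094 for Glul, -0.16 to 0.35 for Vtn, -0.052 to 0.37 for Itm2a, -0.45 to 0.94 for Egr1, -0.48 to 0.99 for Arc, -0.23 to 0.31 for Sort1, -0.37 to 0.17 for Vgf, -0.49 to 0.20 for H2-D1, -0.48 to 0.40 for Tef, -0.14 to 0.18 for Mt3 and -0.33 to 0.034 for Gpx4.

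Estimated counts summed to 50912906 or more per library, and 3 mice a group limited the comparison. These sums are not read depth, since they exceed the valid reads that the paper lists for the libraries of both groups. Levels near the 0.0001 listed for no estimate are uncertain.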
